A study of Schizosaccharomyces pombe with 3 samples.

Results

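The regions described here are intergenic features of a fission yeast array. Their ratio of Tup11 precipitate to input lay under the array's median on each of 2 arrays. Tup11-GFP chromatin of Schizosaccharomyces pombe was precipitated with an antibody against GFP and hybridised together with its own input to spotted arrays whose PCR products cover either an open reading frame (ORF features) or the intergenic DNA upstream of a gene. The cells were taken from growth in rich YES medium at mid log phase, and all 3 arrays belong to this single group. The slides of replicates 1 and 2 carry the code E120D in their labels and that of replicate 3 the code F060D, the codes stand under separate array platforms, and no array of an untagged strain was analysed here. The log2 ratio of precipitate to input was centred on the median of all yeast features of the array. A feature was called low when this centred ratio lay under 0 on replicate 1 and on replicate 3. ORF features had medians of -0.48 and -0.12 on replicates 1 and 3, and intergenic features 0.50 and 0.15. A value under 0 is thus relative to the array, and a level of no binding was not measured. Of 5169 intergenic features on the array, 3497 were measured on both of these arrays (67.7%), and 551 of the 3497 were low. The other 2946 measured intergenic features are the ones they are set against.

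Tup11 is one of the fission yeast counterparts of the budding yeast corepressor Tup1. With Tup12 and Ssn6 it is brought to promoters by DNA-binding proteins and lowers transcription there, and genes of glucose and iron metabolism and of the stress response are its known targets. An intergenic array feature covers DNA upstream of a gene, so a low feature names a gene, the downstream gene. The word low describes only the ratio of that feature on the arrays used to call it. Other DNA upstream of the same gene can be raised in the precipitate, as can the feature itself on the array not used.

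Short gaps between divergent genes stood among the lowest features. Their sequences are shown because the whole gap can be read at once. For low features of longer gaps the last 300 bases up to and including the start codon are shown. The rps1602 gap was chosen after its values were seen, outside the rule that chose the other sequences from the lowest features. Feature names were matched to the reference genome ASM294v3 of RefSeq, and all coordinates are of that build. Each sequence runs 5' to 3' in the sense of the downstream gene, and capitals mark start codons: ATG of the downstream gene, and CAT where the divergent neighbour's start codon is read on the opposite strand.

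fmt1 to SPAC1805.10, whole gap with both start codons, chrI:2791219-2791245, minus strand: CATtctgcaacaaaatttataaggATG

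pus4 to rpl502, whole gap with both start codons, chrII:3365628-3365692, plus strand: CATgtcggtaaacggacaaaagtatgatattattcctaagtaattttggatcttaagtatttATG

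rps1602 to rpl13, whole gap with both start codons, chrI:1711065-1711216, minus strand: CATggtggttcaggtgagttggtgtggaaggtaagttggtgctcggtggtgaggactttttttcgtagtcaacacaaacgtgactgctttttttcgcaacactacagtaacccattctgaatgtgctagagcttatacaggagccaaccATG

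trk1, last 300 bases, chrI:2820779-2821078, minus strand: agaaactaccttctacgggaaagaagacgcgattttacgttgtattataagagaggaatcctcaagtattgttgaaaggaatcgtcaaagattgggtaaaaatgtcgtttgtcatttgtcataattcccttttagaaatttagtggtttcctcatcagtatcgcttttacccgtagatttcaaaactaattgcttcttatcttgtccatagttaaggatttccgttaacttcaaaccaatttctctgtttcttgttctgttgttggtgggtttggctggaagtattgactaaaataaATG

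yak3, last 300 bases, chrI:4248769-4249068, plus strand: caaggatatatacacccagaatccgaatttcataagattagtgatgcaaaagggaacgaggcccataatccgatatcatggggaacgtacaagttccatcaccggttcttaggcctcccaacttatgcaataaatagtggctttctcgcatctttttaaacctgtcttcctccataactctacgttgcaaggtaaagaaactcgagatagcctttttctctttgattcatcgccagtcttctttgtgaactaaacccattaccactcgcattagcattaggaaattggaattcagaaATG

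The gap of fmt1 measures 21 bp between the coding sequences, that of pus4 59 bp and that of rps1602 146 bp. The gaps of trk1 and yak3 are divergent too and measure 704 and 1268 bp. The ends of the spotted PCR products were not used here, and a product of a gap shorter than itself also holds coding sequence. TATAAA was found on either strand 1 time in the fmt1 gap and 0 times in the other 4 sequences.

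The direction of the ratio rests on a choice. The scanner files name channels A and B without dyes. Taken as B over A, the correlation across features was r = 0.73 between replicates 1 and 2 (4239 features), but r = -0.54 between replicates 1 and 3 (7720 features) and r = -0.40 between replicates 2 and 3 (4344 features). The deposited value tables followed channel B on replicates 1 and 2, with regression slopes of 1.10 and 0.87. They followed channel A on replicate 3, with a slope of 1.09. For this match the names of ORF and intergenic features were exchanged in the deposited value tables. All features here carry the names of the scanner files, and which naming is right was not tested. Channel B on replicates 1 and 2 and channel A on replicate 3 were taken as the precipitate, which is likely and not certain. In this direction 3 mitochondrial features had medians of -3.47, -4.44 and -2.12 on replicates 1 to 3. The Ef1-b control spots had -0.55, -0.78 and 0.71. By scanner name the ef1-b ORF had -0.56, -0.96 and 0.52, and the ef1-b intergenic feature 3.31, 1.70 and 3.61. The bearing of these values on direction or names was not tested. A second reading, with channel B as the precipitate on all 3 arrays (called the same letters below), is given for the main results across features, and if all 3 arrays ran the other way the low features would be the raised ones. Depth differed between the arrays: 7738, 4355 and 9957 features were measured on replicates 1 to 3. On replicate 1, 1299 of 1656 unmeasured intergenic features had precipitate signal and no input signal, so features with the faintest input could not be called low. On replicate 3 none of 192 unmeasured intergenic features was of this kind (0), and 79 had input signal and no precipitate signal, so those could not be called low either.

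On the arrays that chose them, the low features had values of -2.45 to -0.0024 on replicate 1, with a median of -0.54, and of -1.30 to -0.0029 on replicate 3, with a median of -0.31. These values are the rule itself and carry no test. The low features made up 15.8% of the measured intergenic features. Of the 551, 78 were under -0.5 on both arrays, 1 was under -1 on both, and 473 lay between -0.5 and 0 on at least 1 of them. Repeat spots of one feature had a pooled SD of 0.24 on replicate 1 and 0.11 on replicate 3, and 293 of the 551 lay under 0 by more than 2 standard errors of repeat spots on both arrays.

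**Figure D1:**
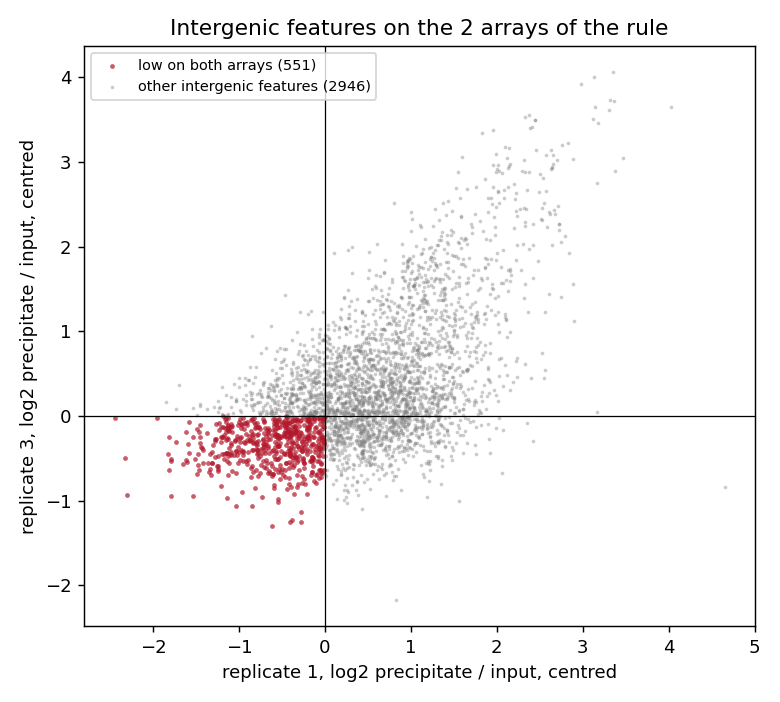
Centred log2 ratio of precipitate to input of 3497 intergenic features on replicate 1 (x axis) and replicate 3 (y axis), one point a feature. The 551 low features fill the lower left corner by construction; 78 of them lie under -0.5 on both axes.

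Just under the threshold lay the features of nrl1, which encodes an NRDE-2 family protein, with -0.0024 on replicate 1 and -0.01 on replicate 3, of SPAC212.06c, a DNA helicase-like gene, with -1.19 and -0.0029, and of spo20, which encodes a Sec14-like phospholipid transfer protein, with -0.18 and -0.0030. Just above it lay those of the transcription factor gene moc3, with 0.00012 and -0.08, of dml1, with 0.00056 and -0.39, and of the histone demethylase gene lsd1, with 0.0011 and -0.12. On replicate 2 SPAC212.06c had -1.10, spo20 0.28 and moc3 -0.17.

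Replicate 2 was not used by the rule and measured 348 of the 551 low features (63.2%), against 1182 of the 2946 others (40.1%). The low features had a median of -0.02 there, from -2.45 to 1.40, and the other features a median of 0.62. Of the low features 180 of 348 were under 0 on replicate 2, which is 51.7% (exact 95% binomial interval 46.3 to 57.1, for counting error only), against 215 of 1182 others (18.2%, interval 16.0 to 20.5). The background share over all 1590 intergenic features measured on replicate 2 was 25.0%. Of 3579 intergenic features not measured on replicate 2, 2529 had precipitate signal and no input signal, and 4 had the reverse. The shares and medians on replicate 2 thus leave out features without input signal there. As a group the measured low features lay near the median of all yeast features on the array left out. They lay 0.64 log2 units under the other intergenic features measured there. That array median mixes ORF features, with a median of -0.28 on replicate 2, and intergenic features, with a median of 0.50, so 0 is not a measured level of no binding. A single array was left out, so this difference has no replicate test. With replicate 3 read with the same letters, 44.3% of the features chosen were under 0 on replicate 2.

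Which of the chosen arrays carried the result on replicate 2 was visible when the signs were separated. Features under 0 on replicate 1 and not on replicate 3 had a median of 0.10 on replicate 2 (309 features), close to that of the low features. Features under 0 on replicate 3 and not on replicate 1 had a median of 0.76 (136 features), close to the 0.84 of features under 0 on neither (737 features). Among features under -1 on replicate 1, those also under 0 on replicate 3 had a median of -0.46 on replicate 2 (100 features) and those not under 0 on replicate 3 a median of -0.66 (23 features). Between -0.25 and 0 on replicate 1 the medians were 0.49 (58 features) and 0.27 (114 features). In 4 of the 5 ranges of replicate 1 compared, the features also under 0 on replicate 3 had the higher median on replicate 2, and from -0.75 to -0.5 the medians were 0.0059 (67 features) and 0.02 (61 features). Replicates 1 and 2 share a slide code and replicate 3 has its own, so slide code and array cannot be told apart.

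**Figure D2:**
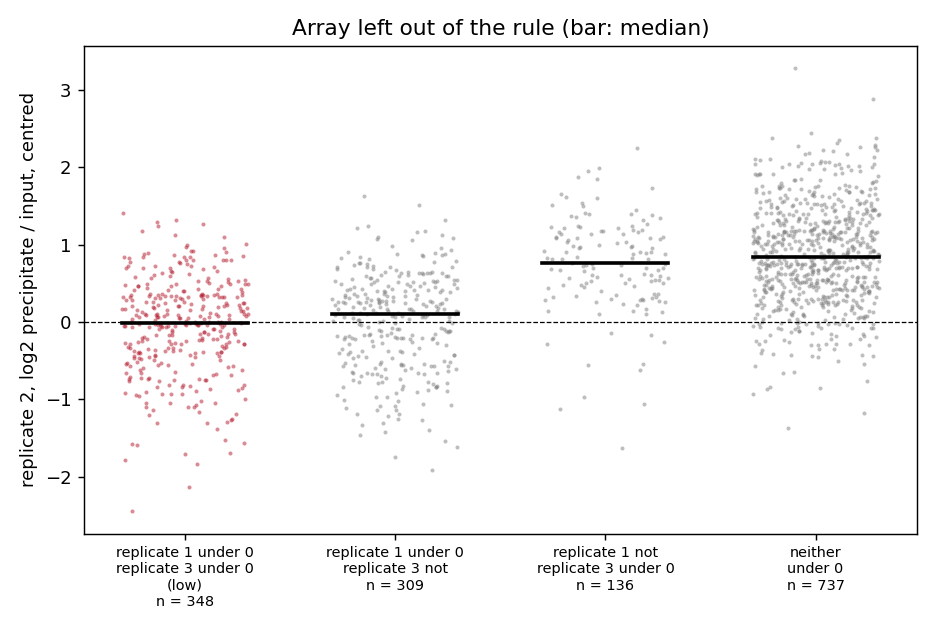
Centred log2 ratio on replicate 2, the array that the rule left out, for intergenic features grouped by their signs on replicates 1 and 3, one point a feature and a bar at the median. The low features sit around 0 (median -0.02), as do the features under 0 on replicate 1 alone, and the remaining groups sit at 0.76 and 0.84.

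Replicate 3 could be left out in turn. When features were chosen on replicates 1 and 2, 318 were under 0 on both, and 180 of the 317 measured on replicate 3 were under 0 there (56.8%, interval 51.1 to 62.3), against 304 of 1213 others (25.1%). Their median on replicate 3 was -0.08, against 0.44 for the others. When features were chosen on replicates 2 and 3, 180 of 191 were under 0 on replicate 1 (94.2%), against 477 of 1339 others (35.6%). The comparison on replicate 3 rests on its likely direction: with the same letters 43.2% of the features chosen on replicates 1 and 2 were under 0 there, against 74.9% of the others, with medians of 0.08 and -0.44. The 180 features were low on all 3 arrays.

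In the limma fit of all 3 arrays against the array median (Benjamini-Hochberg adjusted p under 0.05), 495 of 4230 features were called below the median, which is 11.7% of all features. Among the 348 low features in the fit 30 were called below (8.62%) and 0 above, while 413 of the 4230 features were called above (9.76%). The rule had used 2 of these arrays, so nothing is read from the members' share. Of the 1530 intergenic features in the fit 33 were called below, and 30 of them were low features. The rule itself largely sets this count, so nothing is read from it either. The count of features called below was 6 without replicate 1, 117 without replicate 2 and 905 without replicate 3.

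The lowest features lay upstream of genes of different annotated roles. The fmt1 feature, upstream of methionyl-tRNA formyltransferase, had -2.31, -1.69 and -0.93 on replicates 1 to 3. The feature named for its divergent neighbour SPAC1805.10, an uncharacterized protein gene at the other end of the same 21 bp, had -1.79, -1.84 and -0.95. Both features of this gap were thus under 0 on every array. The pus4 feature, upstream of a tRNA pseudouridine synthase, had -1.79, -1.58 and -0.53, and the pus4 ORF itself had -1.83, -1.87 and -0.04. The feature of trk1, the plasma membrane potassium transporter, had -1.79, -0.34 and -0.51. A longIGR feature of SPAC1399.02, a transporter gene, had -1.82, -0.38 and -0.44. The second feature of SPAC1399.02, in the same gap of 2093 bp, was not low, with -0.25 and 0.56 on replicates 1 and 3.

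The feature of SPBC17A3.05c, a J domain protein gene and so a relative of chaperone partners, had -1.66, -0.91 and -0.57. The longIGR feature of sec16, which encodes a coat component of vesicles that leave the endoplasmic reticulum, had -1.49, -0.71 and -0.68. The rps1602 feature, upstream of a protein of the small ribosomal subunit, had -1.61, -0.74 and -0.55. Its divergent neighbour rpl13, a gene of the large subunit, gave the second feature of that 146 bp gap, with -1.45, -0.02 and -0.10. These features were under 0 on every array, although rpl13 was within the repeat-spot spread of 0 on replicates 2 and 3. The yak3 feature, upstream of an aldose reductase family gene, differed: it had -1.53 and -0.94 on replicates 1 and 3 and 0.21 on replicate 2. A feature named for a stretch of cosmid p20C8, with no gene match, had -2.32, -1.70 and -0.50.

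The features lowest on the array left out included 2 parts of the outer centromeric repeats, DNA known for carrying heterochromatin in fission yeast. The dhII repeat feature had -2.45 on replicate 2, with -1.12 and -0.48 on replicates 1 and 3, and the dg1 repeat feature had -1.78, with -1.33 and -0.62. The dgII repeat feature was not low, at -1.28, -0.77 and 0.10 on replicates 1 to 3, and the dh1 repeat feature had 0.69, 0.46 and 0.56. Near-identical repeat copies can share hybridisation, and how far these features do was not tested. Beside the 15.8% of all measured intergenic features, of 7 measured features of centromeric repeats or core 2 were low, of 6 features of 5S or 18S ribosomal RNA 1 was low, and of 11 tRNA features and 6 mating-type features 0 were low.

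Also among the lowest on replicate 2 was the tco1 feature, upstream of an RTA1-like protein gene, with -1.58, -2.13 and -0.44 on replicates 1 to 3. A longIGR feature of tgp1, upstream of a plasma membrane transporter of glycerophosphodiesters, had -1.46, -1.58 and -0.18. The second feature of tgp1, in the same gap of 3550 bp, was not low, with -0.55, -0.75 and 0.36. The feature of SPAC1B3.15c, annotated as a vitamin H transporter gene, had -0.95, -1.52 and -0.43. At the other end of replicate 2 stood low features that were raised there. The feature of pan2, a subunit of a poly(A)-specific nuclease, had 1.40 on replicate 2, with -0.11 and -0.70 on replicates 1 and 3. The feature of frs2, a phenylalanyl-tRNA synthetase subunit, had 1.31, with -0.15 and -0.34. The feature of caf16, a CCR4-Not subunit, had 1.29, with -0.75 and -0.68. The features of hrq1, a RecQ-type helicase gene, and of SPAC23D3.13c, a guanyl-nucleotide exchange factor gene, had 1.27 and 1.24. The features at both ends met the same rule on replicates 1 and 3.

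The genes downstream of low features were compared by list with the share of low features among all measured intergenic features (15.8%). These lists were chosen with results of these arrays known, and every share below uses the arrays of the rule, so the shares are descriptions. With replicate 3 read with the same letters, 421 of the 3497 features are chosen (12.04%). Upstream features of 5 lists were seldom low. These were iron uptake 0 of 15, the stress response 0 of 22, transcription factors 0 of 31, glycolysis and fermentation 1 of 13, and glucose-repressed genes 1 of 19. Whether Tup11 regulates the genes of these lists was not tested here. Together these lists held 2 low features among 95 measured (2.11%, exact interval 0.256 to 7.399), and 4 with the same letters (4.21%, interval 1.16 to 10.4). Taken singly, the intervals of iron uptake (0 to 21.8), glycolysis (0.195 to 36.03) and glucose-repressed genes (0.133 to 26.03) hold the 15.8% of all measured features. Those of the stress response (0 to 15.4) and transcription factors (0 to 11.2) lie under it. With the same letters the stress response had 1 of 22 (0.115 to 22.8) and transcription factors 2 of 31 (0.791 to 21.4). Both of these intervals hold the 12.04% of that reading. The intervals cover counting error only and are no test of a list. On replicate 2 the 60 features of these lists that were measured had a median of 1.05, against 0.47 for all measured intergenic features. Their gaps were long, with a median of 1768 bp, against 889 bp for all measured intergenic features, and the part of gap length in the low count was not tested.

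The 2 exceptions were longIGR features in long gaps. The low feature of pfk1, the 6-phosphofructokinase of glycolysis, had -0.19, 0.50 and -0.05 on replicates 1 to 3 and lies in a gap of 3887 bp. The low feature of fbp1, the fructose-1,6-bisphosphatase of gluconeogenesis, had a replicate 2 value of 0.32 and lies in a gap of 3393 bp. Neither was under 0 on replicate 2.

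The remaining lists had low features at shares from 8.70% to 25.0%, also with the 15.8% of all measured features inside the exact interval of each. Of 106 measured upstream features of cytosolic ribosomal protein genes 11 were low (10.4%, interval 5.30 to 17.8). Besides rps1602 and rpl13, rps2501 had -0.80 on replicate 1 and -0.31 on replicate 3 and was not measured on replicate 2. Of 7 low features of this list measured on replicate 2, 6 were under 0 there, beside 51.7% of all low features, and rpl13, rpl2802 and rps2401 were so by less than the repeat-spot SD of 0.27, at -0.02, -0.02 and -0.06. With the same letters 24 features of this list are chosen (22.6%, interval 15.1 to 31.8). Mitochondrial ribosomal protein genes had 4 low features of 26, among them mrpl31 with -1.31, -0.49 and -0.55 on replicates 1 to 3 and mrpl10 with -0.25, -0.20 and -0.74.

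Vesicle traffic genes had 14 low features of 79 (17.7%, interval 10.04 to 27.9). Besides sec16, the feature of sec74, an exchange factor gene, had -1.14, -0.64 and -0.53 on replicates 1 to 3, and that of vps45, a vacuolar sorting gene, had -1.20 and -0.45 on replicates 1 and 3. Of 9 low features of this list measured on replicate 2, 5 were under 0 there. Genes of ubiquitin and SUMO transfer had 9 low features of 51, led by ubc13, a ubiquitin-conjugating enzyme gene, with -1.46 and -0.63 on replicates 1 and 3. The ubp9 feature, upstream of a ubiquitin hydrolase gene, had -1.28, -0.65 and -0.27 on the 3 arrays.

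Genes named for checkpoints and the spindle had 12 low of 48 (25.0%, interval 13.6 to 39.6), and 3 with the same letters (6.25%, interval 1.31 to 17.2). The longIGR feature of dis1, a microtubule plus-end protein gene, had -1.17, -0.33 and -0.22 on replicates 1 to 3. The klp6 feature, upstream of a kinesin-8 gene, had -0.84, -0.92 and -0.03, and the dis2 feature, upstream of a catalytic subunit of protein phosphatase 1, had -1.004 and -0.42 on replicates 1 and 3. Of 8 low features of this list measured on replicate 2, 5 were under 0, and the median was -0.18. Meiosis and sporulation genes by name had 11 low features of 107 (10.3%), with spo3, a sporulation gene, at -0.98, -0.43 and -0.26.

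The other lists were small. DNA repair and replication genes by name had 5 low of 41, led by sld5, a subunit of the replicative GINS complex, at -1.03, -0.93 and -0.41 on replicates 1 to 3. Splicing factor genes had 6 low of 42, among them smb1, an Sm core protein gene, at -1.05, -0.28 and -0.46. The ribosome biogenesis list had 9 low features of 48, in 8 distinct gaps. They include that of nop52, a nucleolar protein gene, at -1.23 and -0.08 on replicates 1 and 3. The list also holds the RNA helicase gene dbp5, at -0.82, -0.39 and -0.09, whose annotated product names no role in ribosome biogenesis. Proteasome genes had 3 low of 18, among them pre10, a core particle gene, at -1.27, -1.10 and -0.09. RNA polymerase subunits had 2 low of 23, and cdc genes 3 low of 16, of which cdc45 and cdc16 had 0.72 and 0.86 on replicate 2.

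**Figure D3:**
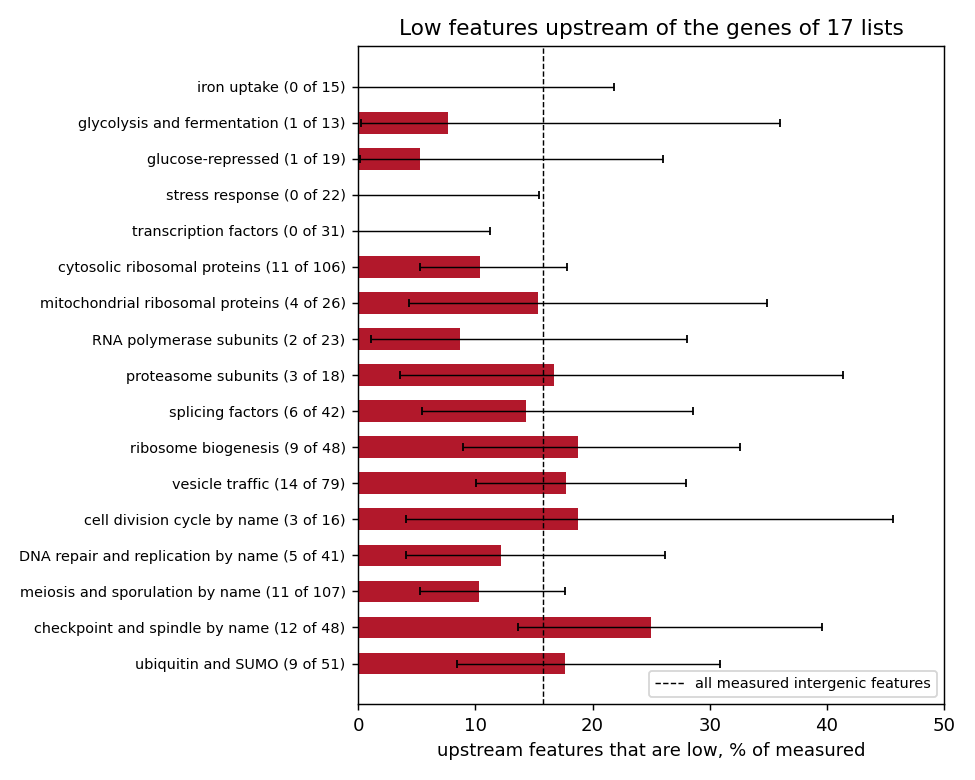
Percentage of measured upstream features that were low (x axis) for 17 lists of downstream genes, with exact 95% binomial intervals for counting error only and a dashed line at the 15.8% of all measured intergenic features. The iron, stress and transcription factor lists hold 0 low features, and every interval except those of the stress and transcription factor lists crosses the line. The lists were chosen with results of these arrays known, so the intervals are no test.

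By annotation, 530 of the low features matched a gene of the reference, 524 of them protein-coding, and 525 were located in 470 distinct gaps. Products annotated as uncharacterized made up 5.47% of the matched low features and 6.06% of the matched other features. Genes with no symbol beyond their systematic name made up 17.4% and 15.9%. Chromosome I held 51.8% of located low features and 45.4% of the others, chromosome II 29.0% and 34.9%, and chromosome III 19.2% and 19.7%. Gaps between divergent genes held 309 low features (58.9%) and 1533 others (54.9%). This difference of 3.91 percentage points became -0.07 with replicate 3 read with the same letters and 0.83 with loess, so it was not stable.

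Low features lay in shorter gaps than the others in the likely direction of the arrays. Their gaps had a median length of 660 bp (quartiles 333 to 1239), against 924 bp (quartiles 558 to 1516) for the other features. Gaps under 300 bp held 109 located low features (20.8%) and 204 others (7.31%). Read the other way, 20 of 43 features of gaps under 100 bp were low (46.5%, interval 31.2 to 62.3) and 89 of 270 features of gaps from 100 to under 300 bp (33.0%, interval 27.4 to 38.9). From 1000 to under 2000 bp 104 of 927 were low (11.2%, interval 9.26 to 13.4). With replicate 3 read with the same letters the ratio of median lengths, low over other, was 1.10, against 0.714 in the likely direction.

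On replicate 2, too, the intergenic features of the shortest gaps had the lowest medians. The median there was -0.0042 for gaps under 100 bp (23 features), 0.15 from 100 to under 300 bp (124 features), 0.51 from 300 to under 600 bp (288 features) and 0.60 from 1000 to under 2000 bp (380 features). In gaps of 2000 bp and over it was 0.39 (314 features). Over all located intergenic features of each array, those in short gaps (up to 630 bp) minus those in long gaps (from 1145 bp), equal parts of the gaps by length, differed in median by -0.22, -0.07 and -0.32 on replicates 1 to 3, a mean of -0.20 ± 0.12 (SD, n = 3). The exact two-sided sign-flip test gave p = 0.25, the smallest that 3 arrays allow, and replicates 1 and 3 also chose the low features, so it adds no support. Read with the same letters on replicate 3 the mean difference was 0.01.

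**Figure D4:**
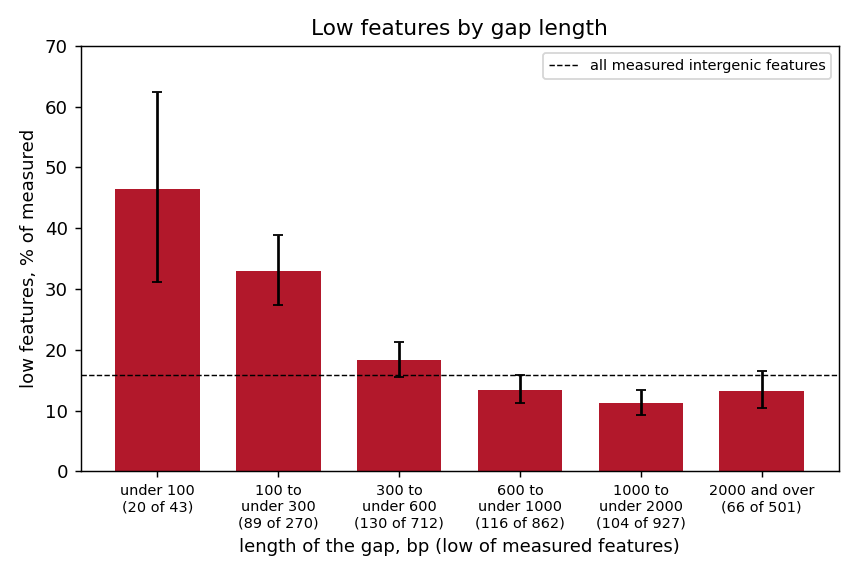
Percentage of measured intergenic features that were low (y axis), by the length of the gap in bp (x axis), with exact 95% binomial intervals for counting error only and a dashed line at 15.8%. The share is 46.5% in gaps under 100 bp and 11.2% in gaps of 1000 to under 2000 bp. Features of one gap are not independent.

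Some features carry the word longIGR in their names. Of 146 such located features 29 lay in gaps under 1000 bp. Of 159 such measured features 49 were low (30.8%), against 502 of 3338 others (15.0%), and with the same letters 52 (32.7%), against 369 others (11.1%). In gaps of 2000 bp and over the share without the longIGR features was 38 of 404 (9.41%). On replicate 2 the longIGR features had a median of 0.15 (126 features), against 0.51 for the others (1404 features). The low features of the longest gaps included that of rtn1, the reticulon gene, in 6143 bp, with -0.66, -0.0019 and -0.19 on replicates 1 to 3. The feature of snf22, a chromatin remodeler ATPase gene, lies in 6141 bp and had -0.05, -0.83 and -0.02. The gap of 5949 bp upstream of lkh1, a dual-specificity kinase gene, held 2 low features, with -0.35, -0.39 and -0.03 for one and -1.20, -0.96 and -0.25 for the other. Both features of the lkh1 gap were under 0 on every array.

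Where a gap had a second measured feature, the features of the gap often differed. The partner of a low feature was itself low in 102 of 269 cases (37.9%), against 167 of 1213 partners of features that were not low (13.8%). The largest differences lay in the gap of fbp1 and wwm3, of 3393 bp. The longIGR feature of fbp1 had -1.12, 0.32 and -0.16 on replicates 1 to 3, and the feature named for wwm3 had 2.32, 2.17 and 3.02. In the gap of 3544 bp between bgs3, a glucan synthase gene, and gas1, a glucanosyltransferase gene, the bgs3 feature had -0.53, 0.35 and -0.24, and the gas1 feature had 1.97, 1.40 and 2.13. In the gap of 4122 bp between rcr1 and SPBC19C7.04c, the rcr1 feature had -1.15, -0.99 and -0.02, and the SPBC19C7.04c feature had 1.58 and 1.98 on replicates 1 and 3. A low feature thus did not mean that the rest of a long gap was low, and which bases each product covers was not used here.

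The ORFs downstream of low features had somewhat lower medians than other ORFs. These were -0.56, -0.30 and -0.22 on replicates 1 to 3, against -0.44, -0.24 and -0.07 for ORFs downstream of the other intergenic features. On replicate 2, 188 of 278 were under 0 (67.6%), against 987 of 1564 (63.1%), with 64.4% of all 2765 ORF features under 0. On replicate 2 the share lies near this background. On replicate 3, which the rule used for the intergenic features, 383 of 516 were under 0 (74.2%), against 1566 of 2752 (56.9%). The difference on replicate 2 was -0.06, or 0.0043 with replicate 3 read with the same letters.

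Seen channel by channel, the low features differed from the others more in the input than in the precipitate, under the likely assignment of the channels. In log2 units from each array's median, the precipitate of low features was at -0.13, -0.11 and -0.03 on replicates 1 to 3, against 0.03, 0.09 and 0.20 for the others. The input of low features was at 0.43, -0.11 and 0.36, against -0.72, -0.58 and -0.21. The difference, low minus other, was -0.15, -0.20 and -0.24 in the precipitate and 1.15, 0.47 and 0.57 in the input. On replicates 1 and 3 a high input enters the ratio that chose the features. On replicate 2, which did not choose them, the input difference was also the larger of the 2. With the same letters the difference, chosen minus other, was 0.13, -0.03 and 0.66 in the precipitate and 1.09, 0.46 and 0.73 in the input. The part of input signal in the other comparisons was not tested.

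**Figure D5:**
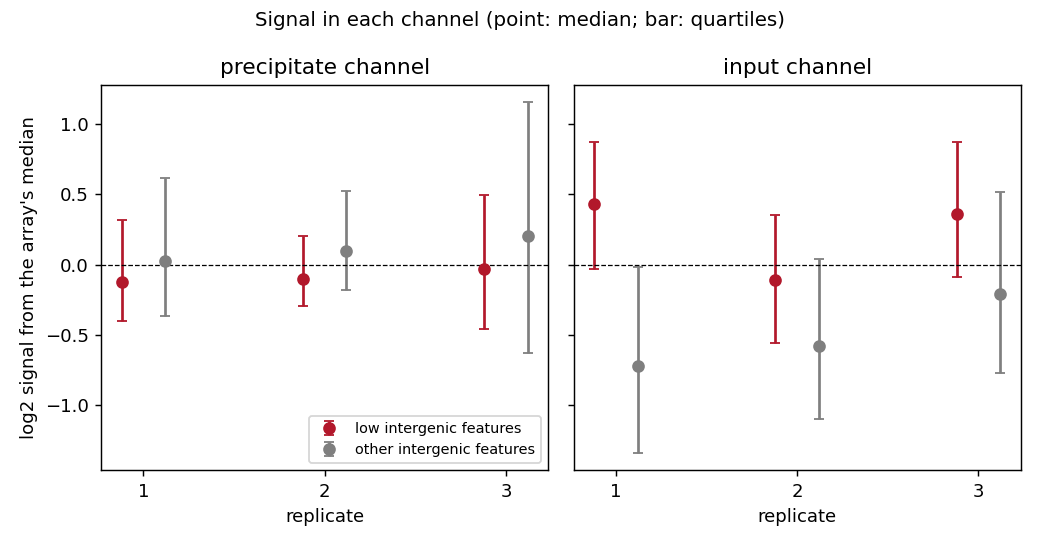
Median log2 signal from the array's median (y axis; bars show quartiles over features) of low and other intergenic features on replicates 1 to 3, in the precipitate channel (left) and the input channel (right). The low features are 0.47 to 1.15 higher than the others in input and 0.15 to 0.24 lower in precipitate.

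The low share also moved with the place on the slide. Over the 48 blocks of spots the share of low features ran from 1.10% to 39.1%, with a median of 12.9%. The intergenic feature measured next in the block after a low one was low in 26.1% of cases, against 13.8% after a feature that was not low. When every block was centred on its own median, an alternative added after these shares were seen, 532 features were low, 49.0% of those measured on replicate 2 were under 0 there, and the ratio of median gap lengths was 0.675. Along the chromosome, the next measured gap held a low feature for 113 of 470 gaps with one (24.0%) and for 357 of 2142 gaps without one (16.7%).

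The median GC content of the gaps differed little, and short words were compared in the 300 bases before the start codon. The median GC content of the gaps was 31.9% for low features and 31.6% for the others, and with loess the difference turned to -0.0888 percentage points. The share of low features was 11.2% in gaps under 30% GC and 20.7% at 36% GC or more. Windows of 300 bases were available for 416 low and 2586 other features, and words were searched on both strands. Gaps under 300 bp gave no window, which left out 109 located low features (20.8%) and 204 others (7.31%). TATAAA was found in 46.2% of low windows and 50.9% of others. The GATA words AGATAA or TGATAA, which GATA factors of iron repression read, were found in 39.7% and 45.8%. The CRE word TGACGT was found in 6.25% and 5.26%, the HomolD box CAGTCACA of ribosomal protein genes in 2.64% and 2.40%, CCCCTC or CCCCGC, read by zinc finger factors of glucose regulation, in 3.61% and 3.48%, the cell cycle word ACGCGT in 2.64% and 3.36%, and the Ste11 word TTCTTTGTT in 1.44% and 2.47%. A run of 8 A or 8 T was found in 26.4% and 26.1%. Low features with TATAAA in the window had a median of 0.13 on replicate 2 (120 features), and those without it a median of -0.06 (135 features).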

How the data were processed

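Per the labels' protocols the authors quantified spots with TIGR Spotfinder, and the deposited values are linear intensity, less background, of channels A and B. The deposited value tables, with log10 values per the comparison with the scanner tables, served only to find each array's precipitate channel. Their fits, with ORF and intergenic names exchanged, had r = 0.65, 0.51 and 0.97 on replicates 1 to 3. The medians of these value tables over rows with a value were 0.04, 0.14 and 0.01, and their scale on replicates 1 and 2 is not settled. Spots above 0 in both channels with both flags C were kept. Log2 ratios of precipitate to input were averaged over repeat spots and centred on the median of all yeast features. Limma 3.58.1 (R 4.3.3) tested means of 3 arrays against 0 with Benjamini-Hochberg adjustment over 4230 features, and was checked on simulated data. Exact binomial intervals are at 95% and cover counting error only. The 3 arrays come from separate experiments per the labels' protocols, and their number limits precision. Gaps run between coding sequences or RNA genes of ASM294v3, and the build behind the feature names is not given in the sources used here. Gaps under 50 bp have no GC value. Members and gene lists were chosen with earlier results of these data known. Named features are the lowest by replicates 1 and 3, the extremes of replicate 2, those nearest the threshold, the lowest of each list, the longest gaps and the gaps whose features differ most. Features of the rule were also recomputed under other centring, flags, loess, dim-spot and block settings, and without each array.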

Additional observations from a re-analysis of the deposited data

How the results depend on the processing

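The number of low features, 551, was 78 under a threshold of -0.5, 1091 with centring on intergenic features, 192 and 318 when replicates 2 and 3 or 1 and 2 chose them, and 180 on all 3 arrays. With loess 646 features were low, of which 408 were shared, 74.0% of the 551 and 63.2% of the 646. The share under 0 on replicate 2, 51.7%, was 75.0% at -0.5, 72.6% with intergenic centring, 61.8% with loess, 46.2% without dim spots and 44.3% with the same letters. It was 38.3% when replicate 3 alone chose the features and 48.3% when replicate 1 alone did, and 94.2% on replicate 1 when that was left out. The difference in median, -0.64, was -0.39 when replicate 3 alone chose the features and -1.19 on replicate 1 when that was left out. The difference of downstream ORFs, -0.06, was -0.29 at -0.5, -0.15 without dim spots, -0.15 and -0.03 when replicate 3 or replicate 1 alone chose the features, -0.25 and -0.12 on replicates 1 and 3 when each was left out, and 0.0043 with the same letters. The ratio of gap lengths, 0.714, was 0.450 at -0.5, 0.543 without replicate 1, 0.815 without replicate 3, 0.554 on all 3 arrays and 1.10 with the same letters. The GC difference of 0.279 percentage points was 0.0443 with intergenic centring, -0.0888 with loess, 0.527 with the same letters, 0.668 without replicate 1, 0.328 without replicate 3 and 0.669 on all 3 arrays. The divergent difference of 3.91 points was 10.9 at -0.5, 8.66 with GC and gap length removed, 1.08 with intergenic centring, 0.828 with loess, -0.0746 with the same letters, 5.60 with blocks of spots centred, 5.79 and 5.68 without replicate 1 or 3 and 6.35 on all 3 arrays. The difference between short and long gaps, -0.20, was 0.011 with the same letters. Features called above and below the median by limma, 413 and 495, were 187 and 997 with intergenic centring, 428 and 116 with loess, 366 and 278 with an intensity trend in the prior, and 0 and 0 with the same letters (10 and 132 at an unadjusted p under 0.05). Leaving out each array gave 83 to 559 above and 6 to 905 below. The cause of these changes was not tested. No paired analysis was possible because there is a single group. Input signal near 0 limits which features could be measured, most of all on replicate 2.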
